A study of Mus musculus with 2 samples.

Results

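The colony-stimulating factors and interleukin-34 are the secreted signals that keep macrophages and granulocytes alive, and 4 genes that encode them, Csf1, Csf2, Csf3 and Il34, were followed at the level of open chromatin in mammary gland organoids. Regions were taken as belonging to a gene when they overlapped its body or lay within 50 kb of any of its transcription start sites (TSS) in GENCODE M21 on mm10. This gave 132 of the 275294 merged peak regions of the data, 40 for Csf1, 23 for Csf2, 28 for Csf3 and 41 for Il34. Peaks of both libraries met in 95 of them, called shared here, while 17 were called in the doxycycline library alone and 20 in the ethanol library alone.

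Single-cell ATAC-Seq counts transposase insertions in the accessible chromatin of single nuclei. Organoids came from C57BL/6J mice of the genotype shTRPS1.34 ki/+; CAG-rtTA3 tg/+, in which doxycycline induces an shRNA against Trps1, the repressor of the GATA family. They received doxycycline at 0.1 µg/ml (DOX) or ethanol as the control (EtOH) for 7 days. The shRNA cassette sits in the Col1a1 locus and rtTA3 is driven by the ubiquitous CAG promoter, so any cell type can express it. In the mice of the paper this driver left a small share of mammary cells with little or no induction, so DOX nuclei may include such cells. Both groups carried both alleles and only DOX received doxycycline, so shRNA induction and doxycycline itself cannot be told apart. The mice were adult, as the methods state for the study. Each group was 1 library of cells mixed from several mice, so that no difference between the groups could be tested against replicates, and the 95% intervals given below cover the counting error and nothing else. The question was which chromatin changes come early once the shRNA is induced.

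CSF-1 and IL-34 are the ligands of the receptor CSF1R, on which most tissue macrophages depend for survival. CSF-1 is made by many stromal and epithelial cells, whereas IL-34 is best known from keratinocytes and neurons. Csf2 encodes GM-CSF, which acts through CSF2RA and the shared beta chain, and Csf3 encodes G-CSF, the main growth factor of neutrophils. In the mammary gland macrophages surround the ducts, and CSF-1 is needed for branching at puberty and for lactation. Open chromatin at a gene shows that its regulatory DNA can be reached and is no measure of its RNA or protein.

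The DOX library held 3071 nuclei with a median of 75296 counts and the EtOH library 3104 nuclei with a median of 66789.5. Nuclei were divided into 7 clusters on shared regions, with 100 kb around the 4 genes left out. Cluster 2 was open at Ptprc, Csf1r and C1qb, whose summed level was 305 CPM in DOX and 318 CPM in EtOH, where CPM are counts set relative to the total of the same nuclei over all shared regions, against 23.7 and 24.4 in the epithelial nuclei. A cluster was classed as macrophage-like where each of these genes was over 2-fold above all other nuclei. Other clusters, save that of low depth, were epithelial where the median of 8 epithelial markers was over 2-fold above cluster 2. The levels of these genes and markers thus follow largely from the rule and are no separate evidence of identity. All 8 epithelial markers (Epcam, Krt8, Cldn3 and others) were at least 2-fold lower in cluster 2 in both libraries. Of 7 further macrophage markers, not used in the rule, 6 were at least 2-fold higher there. Single markers of T cells (Cd3d), B cells (Ms4a1), NK cells (Klrb1c) and adipocytes (Adipoq) were also at least 2-fold higher in this cluster, while the T cell markers Cd3e and Cd3g were lower. Also higher were 2 of 4 endothelial markers, Cdh5 at 36.7 and 42.4 CPM against 3.65 and 2.28 CPM and Kdr at 57.8 and 52.9 CPM against 13.1 and 12.7 CPM, and 2 of 4 pericyte markers, Pdgfrb and Kcnj8, while the pericyte marker Rgs5 was lower. The cluster is called macrophage-like here, and the part of other cell types in it was not tested. Macrophage-like nuclei made up 41.6% of the DOX library (1278 nuclei) and 8.96% of the EtOH library (278). The epithelial nuclei, 1751 in DOX and 2803 in EtOH, were spread unequally over the clusters. In DOX 86.2% of them were in cluster 3, which was left unnamed and held only 28 EtOH nuclei, while in EtOH 94.7% were in cluster 1 and the hormone-sensing luminal-like clusters 4 and 5. In clusters 4 and 5 the hormone-sensing markers had a median log2 fold over other nuclei of 0.91 and 0.84. The medians were 0.12 and 0.25 for fibroblast markers and -0.53 and -0.08 for adipocyte markers. The adipocyte marker Cidec (2.26 and 1.496) and the fibroblast marker Dpt (1.83 and 1.18) were however above Esr1 (1.28 and 1.13). The part of other cell types in these clusters was not tested. Cluster 1 was left unnamed, since luminal progenitor genes such as Kit and Csn3 were more open in it than in other nuclei while Cd14, Ltf and Trf were less open, and the median log2 fold of the basal markers, 0.39, was as high as that of the luminal progenitor markers, 0.34. Cluster 6 (67 and 121 nuclei) was unnamed too, being more open at the basal genes Trp63, Krt14 and Krt5 and at the fibroblast genes Dcn and Col1a2, and cluster 7, of low depth, entered neither class. Every epithelial ratio below therefore compares mainly cluster 3 with clusters 1, 4 and 5, and whether cluster 3 is a cell state or a property of the 1 library was not tested. A total of 23 barcodes occurred in both libraries.

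The sequences that the results turn on are printed here, in mm10. The promoters of Csf1 and Csf2 are the 250 bases ahead of the RefSeq start (GRCm38.p6, minus strand, chr3:107760470-107760719 and chr11:54249900-54250149). No such entry was held for Csf3 and Il34. The printed Csf2 stretch lies upstream of the GENCODE TSS used here (chr11:54249667) and does not reach it. The regions are the central 300 bases of the merged peak on the plus strand. Capitals mark matches to any of 7 motifs on either strand. AP-1 was searched with the letters TGANTCA. The letters for the GATA family were AGATAA. Those for ETS factors were GAGGAAGT. For NF-kB they were GGANTTTCC. For forkhead (FOX) factors they were TGTTTAC. The RUNX letters were TGTGGTT. For TEAD factors the search used GGAATG.
Csf1 promoter: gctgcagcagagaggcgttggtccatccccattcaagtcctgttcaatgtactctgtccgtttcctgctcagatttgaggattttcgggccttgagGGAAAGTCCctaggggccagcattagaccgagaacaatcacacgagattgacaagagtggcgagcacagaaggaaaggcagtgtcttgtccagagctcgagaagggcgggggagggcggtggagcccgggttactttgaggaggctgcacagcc
Csf2 promoter: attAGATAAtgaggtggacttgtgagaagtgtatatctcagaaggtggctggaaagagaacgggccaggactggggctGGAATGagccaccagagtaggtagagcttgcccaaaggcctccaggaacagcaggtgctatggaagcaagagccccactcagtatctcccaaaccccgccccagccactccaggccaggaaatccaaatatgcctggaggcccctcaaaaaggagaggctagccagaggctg
Csf1, 9.27 kb upstream, higher in DOX epithelium (chr3:107769591-107769890): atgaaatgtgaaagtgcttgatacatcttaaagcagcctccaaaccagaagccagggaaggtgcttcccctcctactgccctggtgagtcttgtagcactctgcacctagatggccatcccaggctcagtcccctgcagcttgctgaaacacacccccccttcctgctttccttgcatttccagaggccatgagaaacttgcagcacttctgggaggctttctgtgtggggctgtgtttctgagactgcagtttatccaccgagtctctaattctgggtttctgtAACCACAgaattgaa
Csf1, 17.7 kb upstream, open in macrophage-like nuclei (chr3:107778039-107778338): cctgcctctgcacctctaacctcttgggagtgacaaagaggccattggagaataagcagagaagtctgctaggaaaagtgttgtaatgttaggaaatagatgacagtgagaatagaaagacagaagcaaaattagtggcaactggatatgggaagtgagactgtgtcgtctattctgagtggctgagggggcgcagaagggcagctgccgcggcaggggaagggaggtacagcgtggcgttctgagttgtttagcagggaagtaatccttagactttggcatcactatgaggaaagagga
Csf1, 30.0 kb upstream, lower in DOX epithelium (chr3:107790364-107790663): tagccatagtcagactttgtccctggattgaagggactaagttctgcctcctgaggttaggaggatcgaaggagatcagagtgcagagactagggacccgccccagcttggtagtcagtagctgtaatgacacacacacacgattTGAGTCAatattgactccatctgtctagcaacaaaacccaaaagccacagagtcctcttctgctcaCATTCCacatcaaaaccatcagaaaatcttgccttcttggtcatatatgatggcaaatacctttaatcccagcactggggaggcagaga
Csf2, 12.5 kb downstream, higher in DOX epithelium (chr11:54237032-54237331): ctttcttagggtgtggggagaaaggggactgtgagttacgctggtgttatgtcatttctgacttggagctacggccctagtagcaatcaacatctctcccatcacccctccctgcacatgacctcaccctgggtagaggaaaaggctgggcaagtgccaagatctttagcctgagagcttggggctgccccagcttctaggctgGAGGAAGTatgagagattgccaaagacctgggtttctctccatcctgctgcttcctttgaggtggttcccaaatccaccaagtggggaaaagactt
Csf3, 40.6 kb upstream, open in macrophage-like nuclei (chr11:98660526-98660825): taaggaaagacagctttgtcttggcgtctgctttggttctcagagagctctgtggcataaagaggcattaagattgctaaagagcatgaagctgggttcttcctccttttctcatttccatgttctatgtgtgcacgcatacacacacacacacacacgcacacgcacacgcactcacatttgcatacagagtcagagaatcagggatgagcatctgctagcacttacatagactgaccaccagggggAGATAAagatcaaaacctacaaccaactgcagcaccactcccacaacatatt
Il34, 25.6 kb downstream within the gene, open in epithelial nuclei (chr8:110780177-110780476): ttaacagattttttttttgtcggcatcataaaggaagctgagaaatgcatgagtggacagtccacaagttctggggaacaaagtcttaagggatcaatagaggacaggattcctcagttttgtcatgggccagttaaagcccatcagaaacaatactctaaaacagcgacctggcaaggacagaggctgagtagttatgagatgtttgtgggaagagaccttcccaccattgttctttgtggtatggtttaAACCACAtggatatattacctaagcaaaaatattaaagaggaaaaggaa

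The Csf1 promoter held 1 NF-kB match, GGAAAGTCC at position 97, a motif found in 1.07% of 32851 RefSeq promoters of the same length. The Csf2 promoter held a GATA match at position 4 and a TEAD match at position 79, which 9.99% and 12.6% of promoters hold. The Csf2 region 12.5 kb downstream held the ETS letters at position 205, against 4.68% of all 174940 shared regions. The Csf1 region 30.0 kb upstream held AP-1 at position 146 and TEAD at position 212, and the region 9.27 kb upstream held RUNX at position 286. None of the 7 motifs was found in the macrophage-like Csf1 region 17.7 kb upstream, which says only that these letters are not in that window. Over all 95 shared regions of the 4 genes, TEAD letters were in 27 (28.4%, against 20.2% of all shared regions), AP-1 in 12 (12.6%, against 20.9%), GATA in 12 (12.6%, against 13.2%) and RUNX in 10 (10.5%, against 11.2%). ETS was in 5, FOX in 6 and NF-kB in 1 (5.26%, 6.32% and 1.05%, against 4.68%, 5.40% and 1.72%). These motif matches are descriptions of letters and were not tested as binding sites.

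Csf1, the gene of the principal ligand of CSF1R, had the most open promoter of the 4 genes in epithelial nuclei. It lies on the minus strand at chr3:107741048-107760469 with 6 annotated TSS, and 3 shared regions within 1 kb of these formed its promoter. Their summed level in epithelial nuclei was 40.3 CPM in DOX (38.8 to 41.9, from 5205 counts). In EtOH it was 39.01 CPM (37.8 to 40.3, from 7283 counts). DOX over EtOH gave a log2 ratio of 0.05 (-0.03 to 0.12), so that no difference was detectable at this depth. In macrophage-like nuclei the promoter stood at 28.0 CPM (26.4 to 29.7) in DOX and at 28.5 CPM (24.7 to 32.8) in EtOH, again without a detectable difference (log2 -0.02, -0.24 to 0.20). The promoter was thus lower in macrophage-like than in epithelial nuclei by a mean of -0.49 on the log2 scale.

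This class difference lay at an internal start site. The main promoter region (chr3:107759834-107760773, which covers the first TSS and 5′ UTR) was almost equally open in all 4 groups, at 24.04 and 22.4 CPM in DOX and EtOH epithelial nuclei and 25.9 and 25.2 CPM in macrophage-like nuclei. The region at an internal TSS 9.37 kb further downstream (chr3:107750677-107751523, in an intron of the longest transcript) had 14.7 and 15.1 CPM in epithelial nuclei but only 1.62 and 2.69 CPM in macrophage-like nuclei. A weak region next to it, 10.9 kb downstream of the first TSS (chr3:107749165-107749881), had 1.56 and 1.48 CPM against 0.545 and 0.582 CPM. The main start of Csf1 was therefore open in both classes, and the internal one mainly in the epithelium.

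Around this steady promoter, distal Csf1 regions differed between DOX and EtOH epithelium in both directions. With at least 100 counts required, 93 shared regions of the 4 genes were compared in epithelial nuclei. At least 2-fold higher in DOX were 4 (3 of Csf1 and 1 of Csf2, or 4.30%), against 5.36% of all 168277 shared regions compared. At least 2-fold lower in DOX was 1, of Csf1 (1.08%, against 8.48% of all regions). No region of Csf3 or Il34 reached 2-fold in either direction. The median log2 ratio over the 93 regions was -0.02, beside -0.06 over all regions, 79 differed by less than 1.5-fold, and the interval of 41 held 0. The 4 genes as a set thus stood at or below the background, and the called regions are single cases. On either side of the threshold, the nearest regions were 12.5 kb downstream of Csf2 at 1.16 and 36.5 kb upstream of Il34 at 0.94. The latter lies within 1 kb of another gene's start.

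The largest difference toward DOX lay 9.27 kb upstream of Csf1, between genes (chr3:107769166-107770314). Epithelial nuclei had 7.05 CPM there in DOX and 1.64 CPM in EtOH, a 4.30-fold difference (log2 2.11, 1.84 to 2.38). Macrophage-like nuclei had 6.48 CPM in DOX and 3.49 CPM in EtOH (log2 0.89, 0.29 to 1.56). By cluster, the level was 7.29 CPM in cluster 3, 3.21 CPM in DOX and 1.06 CPM in EtOH nuclei of cluster 1, and 2.05 and 0.779 CPM in cluster 4. Cluster 6 was open here irrespective of treatment, at 11.7 CPM in DOX and 12.8 CPM in EtOH. Higher DOX levels were thus seen in cluster 1 (log2 1.61, 0.02 to 2.86, from 11 DOX counts) and, with an interval that holds 0, in cluster 4 (1.40, -0.08 to 2.78), but not in cluster 6 (-0.13, -0.79 to 0.51). Without cluster 6 the epithelial log2 ratio was 2.71.

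Another Csf1 region with more counts, 54.2 kb downstream of the first TSS and beyond the end of the gene (chr3:107705834-107706751), had 11.1 CPM in DOX and 4.63 CPM in EtOH epithelial nuclei (log2 1.26, 1.09 to 1.44). Macrophage-like nuclei were as open there as DOX epithelium in both libraries, at 11.9 and 13.2 CPM. Within clusters the difference was smaller, at 0.71 in cluster 1 and 0.12 in cluster 4, both with intervals that hold 0, and at 0.75 (0.20 to 1.29) in cluster 6, where the level was 21.1 CPM in DOX and 12.6 CPM in EtOH. The last of the 3 higher regions, 42.2 kb upstream (chr3:107802240-107803195), was weak, at 2.57 and 1.01 CPM (log2 1.35, 0.98 to 1.73). The value within each cluster that could be compared had an interval that held 0.

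In the opposite direction, the region 30.0 kb upstream of Csf1 (chr3:107790065-107790961) had 0.627 CPM in DOX and 2.75 CPM in EtOH epithelial nuclei, which is 4.38-fold lower (log2 -2.13, -2.65 to -1.65). This region belonged to the hormone-sensing luminal-like clusters. It had 9.41 CPM in EtOH and 4.36 CPM in DOX nuclei of cluster 4 and 4.50 CPM in EtOH nuclei of cluster 5, but 0.367 CPM in cluster 3 and 0.245 CPM in EtOH nuclei of cluster 1. Within cluster 4 the log2 ratio was -1.11 (-1.93 to -0.39). The number of DOX nuclei was only 95 in cluster 4 and 7 in cluster 5, against 485 and 492 in EtOH, and the part of this makeup in the epithelial ratio was not separated further.

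**Figure D1:**
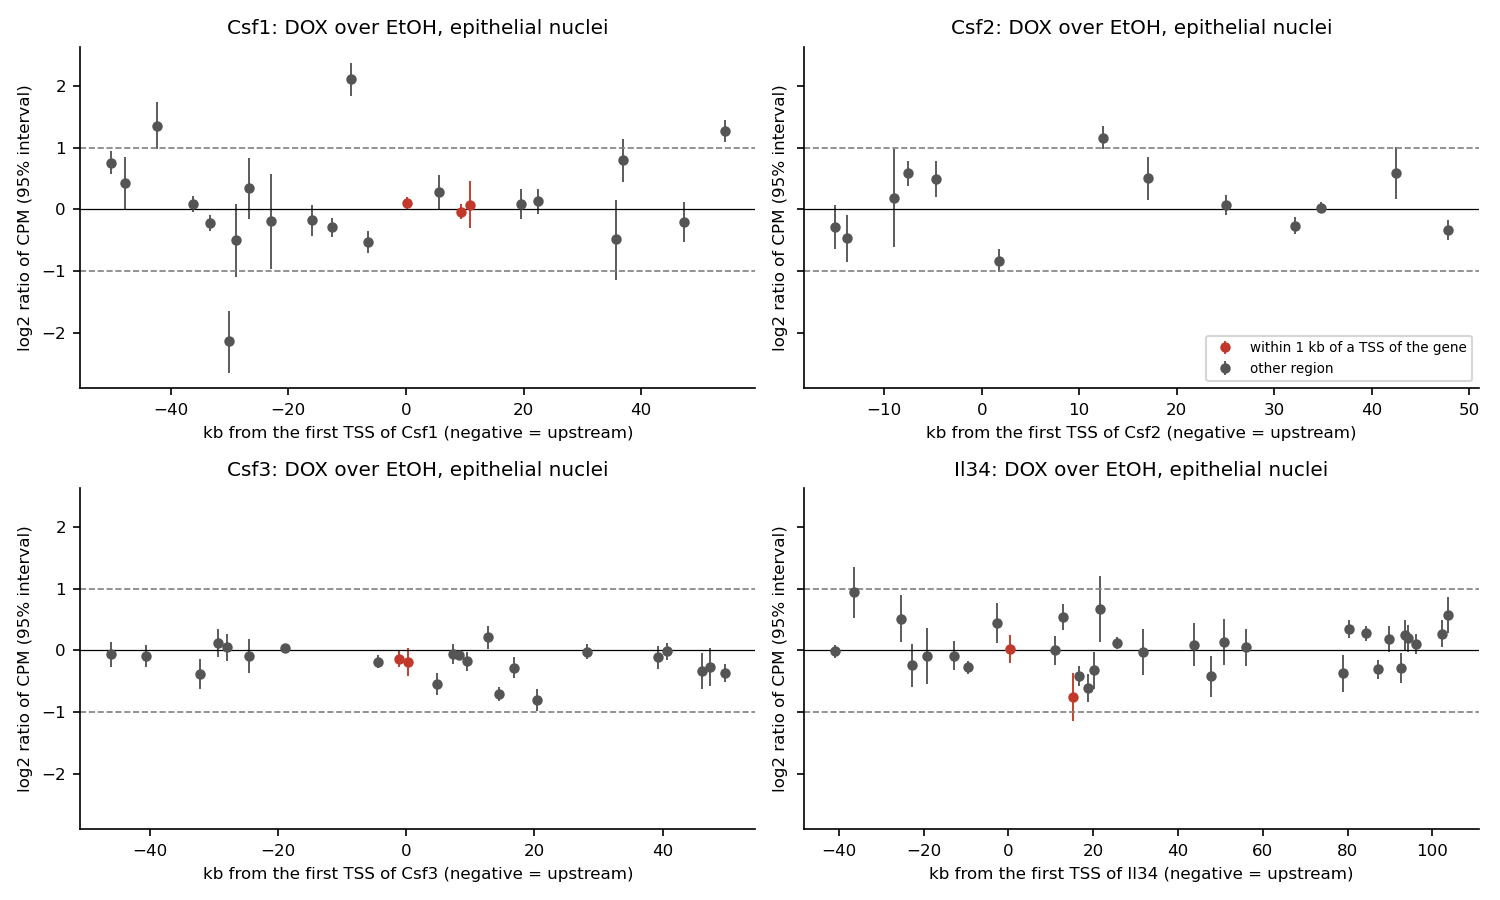
The log2 ratio of DOX over EtOH in epithelial nuclei (y axis) is plotted against the distance from the first TSS in kb (x axis) for each shared region with at least 100 counts, with 95% intervals for counting error, and dashed lines mark 2-fold. Promoter regions (red) of Csf1, Csf3 and Il34 lie within 2-fold, and Csf2 has no shared promoter region. Above the upper line lie 3 Csf1 regions and 1 Csf2 region, and 1 Csf1 region lies below the lower line.

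Upstream of Csf1 there was also a group of regions of macrophage-like nuclei. The region 17.7 kb upstream (chr3:107777709-107778668) had 20.8 CPM in DOX and 19.9 CPM in EtOH macrophage-like nuclei, against 0.279 and 0.284 CPM in epithelial nuclei. Those 23.0 kb upstream (chr3:107783018-107783924) and 20.99 kb upstream (chr3:107780993-107781931, at the start of Gm43233) had 16.5 and 16.1 CPM and 11.2 CPM in both libraries, against less than 0.5 CPM in epithelial nuclei. The epithelial levels are like those of C1qb, a complement gene of macrophages, at 0.666 and 0.402 CPM in the same nuclei, and are read as background. In none of the 3 did DOX and EtOH macrophage-like nuclei differ beyond the counting interval. A peak 10.8 kb upstream was called in DOX alone (chr3:107770780-107771668), with 11.1 CPM in macrophage-like and 0.55 CPM in epithelial nuclei, and has no value for EtOH. The Csf1 window thus held distal open chromatin in macrophage-like nuclei as well as in the epithelium. Whether these regions act on Csf1 was not tested.

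Il34 encodes the other ligand of CSF1R and was the gene most biased to the epithelium. It lies on the minus strand at chr8:110741829-110805924 with 5 annotated TSS, and 2 shared regions formed its promoter. The epithelial level was 5.52 CPM (4.96 to 6.12) in DOX and 6.30 CPM (5.80 to 6.83) in EtOH, with a log2 ratio of -0.19 (-0.38 to 0.0017). Macrophage-like nuclei had 1.199 CPM (0.888 to 1.58) in DOX and 0.654 CPM (0.196 to 1.59, from 9 counts) in EtOH. In the same nuclei that lies between the luminal genes Foxa1, at 2.53 and 1.67 CPM, and Pgr, at 0.896 and 0.582 CPM. It is read as near background. On average the promoter was lower in macrophage-like nuclei by -2.73 on the log2 scale, with -2.20 (-2.66 to -1.77) in DOX and -3.27 (-5.01 to -1.97) in EtOH. With classes set from each nucleus alone this fell below 2-fold, at -0.76 (-1.11 to -0.41). In that setting 1197 of 1422 macrophage-like nuclei in DOX, and 247 of 563 in EtOH, were in the macrophage-like cluster. The size of the class difference thus depends on how the classes were set.

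Within the epithelium the Il34 promoter was most open in the hormone-sensing luminal-like cluster 4, at 11.9 CPM in DOX (93 counts) and 8.63 CPM in EtOH. Cluster 5 had 6.93 CPM in EtOH, cluster 6 had 6.39 and 6.404 CPM, cluster 1 had 4.38 and 5.36 CPM and cluster 3 had 5.04 CPM. The levels of clusters 3, 1 and 6 did not differ beyond their intervals. The region at the first TSS (chr8:110805135-110806036) had 4.28 and 4.20 CPM in epithelial nuclei, and an internal start 15.3 kb downstream (chr8:110790242-110790958) had 1.24 CPM in DOX and 2.09 CPM in EtOH (log2 -0.76, -1.15 to -0.37). Within cluster 4 this internal start went the other way, at 9.10 CPM in DOX and 5.99 CPM in EtOH (log2 0.60, 0.0068 to 1.17). It was weak in cluster 1 (0 and 0.641 CPM) and cluster 6 (0.355 and 0.961 CPM). The part of cluster makeup in its epithelial ratio was not tested. A further peak at an Il34 start was called in EtOH alone, at 2.23 CPM in epithelial nuclei. The most open region inside Il34 was intronic, 25.6 kb downstream of the first TSS (chr8:110779851-110780802), with 24.1 and 22.3 CPM in epithelial nuclei and 1.37 and 0.873 CPM in macrophage-like nuclei. A region of like height 9.62 kb upstream, in an intron of the splicing factor gene Sf3b3 (chr8:110815093-110816005), had 19.9 and 24.2 CPM against 0.884 and 1.38 CPM. The region with the most counts in the Il34 window was the shared start of Cog4 and Sf3b3, at 19.5 and 19.7 CPM in epithelial nuclei, and belongs to those genes. None of the 33 Il34 regions reached 2-fold between DOX and EtOH epithelium, where the range was -0.76 to 0.94. Its upper end is a region within 1 kb of another gene's start.

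Csf3, the gene of G-CSF, lies on the plus strand at chr11:98701263-98703629 with 1 annotated TSS. Its promoter of 2 shared regions had 14.2 CPM (13.3 to 15.1) in DOX and 15.8 CPM (14.98 to 16.6) in EtOH epithelial nuclei, a log2 ratio of -0.15 (-0.27 to -0.03). Macrophage-like nuclei had 10.4 CPM in DOX and 8.65 CPM in EtOH, lower than the epithelium by a mean of -0.66, which was -0.21 with classes set from each nucleus alone and -1.53 for promoters of 500 bp. Most of the promoter counts came from a region 1.12 kb upstream (chr11:98699681-98700606), which had 10.2 and 11.2 CPM in epithelial and 8.72 and 7.34 CPM in macrophage-like nuclei. The region on the TSS itself (chr11:98701108-98701954) differed by a larger fold between the classes, at 4.00 and 4.58 CPM against 1.67 and 1.31 CPM. Among clusters the promoter was highest in cluster 4 (17.3 and 17.98 CPM) and lowest in macrophage-like nuclei, with cluster 6 at 12.8 and 10.7 CPM, and the intervals of the DOX values of clusters 1, 3, 4 and 6 overlap.

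The surroundings of Csf3 are crowded with other genes. The region with most counts in its window was the start of Psmd3, a proteasome subunit (50.99 and 49.9 CPM in epithelial nuclei), and 8 of its 24 shared regions lay within 1 kb of another gene's start. A region 4.33 kb upstream of Csf3 (chr11:98696486-98697388) was epithelial, with 17.3 and 19.7 CPM against 1.23 and 0.80 CPM. The region 40.6 kb upstream (chr11:98660228-98661123) was higher in macrophage-like nuclei, at 28.6 and 31.6 CPM against 6.56 and 7.01 CPM. So were 3 more, of which 2 lay in Med24 (31.1 and 28.8 CPM, and 28.5 and 29.5 CPM) and 1 in Thra. None of the 24 Csf3 regions differed 2-fold between DOX and EtOH epithelium, and 13 of their intervals held 0.

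Csf2, the gene of GM-CSF, had no shared region within 1 kb of its single TSS (chr11:54247271-54249667, minus strand), so no promoter ratio exists. A peak on the TSS was called in DOX alone (chr11:54249174-54250060, which overlaps part of the promoter printed above). The GATA and TEAD matches of the printed promoter lie outside this peak. The peak had 497 counts, or 1.82 CPM in epithelial and 3.16 CPM in macrophage-like DOX nuclei, and has no value for EtOH. The promoter of Csf2 was thus the weakest of the 4 genes in DOX epithelium.

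Distal Csf2 chromatin was more open. Of 12 regions compared between the classes, 2 were at least 2-fold higher in macrophage-like nuclei of both libraries, 4 in epithelial nuclei and 6 in neither. The called region 12.5 kb downstream of the TSS (chr11:54236727-54237635, between genes) had 9.94 CPM in DOX and 4.44 CPM in EtOH epithelial nuclei (log2 1.16, 0.98 to 1.34), and 27.2 and 23.1 CPM in macrophage-like nuclei. The same direction was present, with an interval above 0, in cluster 1 (9.93 against 5.21 CPM, log2 0.93, 0.13 to 1.64) and in cluster 4 (8.46 against 4.23 CPM, log2 1.00, 0.36 to 1.62). Cluster 3 had 10.5 CPM, like the DOX nuclei of cluster 1. Cluster 6 was almost closed there, at 1.07 CPM in both libraries. Macrophage-like nuclei were the most open here and made up more of the DOX library. The macrophage gene C1qb had 0.666 CPM in DOX and 0.402 CPM in EtOH epithelial nuclei, against 59.8 and 64.6 CPM in macrophage-like nuclei. The part of macrophage-like signal in the epithelial ratio of this region was not tested.

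The most counted Csf2 region, 34.8 kb downstream (chr11:54214364-54215290), had 27.7 and 27.2 CPM in epithelial and 18.4 and 16.9 CPM in macrophage-like nuclei. A region 1.79 kb downstream of the TSS, over Csf2 and the overlapping Gm12223 (chr11:54247383-54248366), had 5.17 CPM in DOX and 9.21 CPM in EtOH epithelial nuclei, which did not reach 2-fold (log2 -0.83, -1.02 to -0.65). A pair of Csf2 regions was higher in DOX within the macrophage-like nuclei. The region 47.8 kb downstream, in an intron of 4933405E24Rik (chr11:54201299-54202371), had 10.0 CPM in DOX and 3.27 CPM in EtOH. That 13.8 kb upstream (chr11:54263030-54263849) had 2.22 and 0.582 CPM, the latter from 8 counts.

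**Figure D2:**
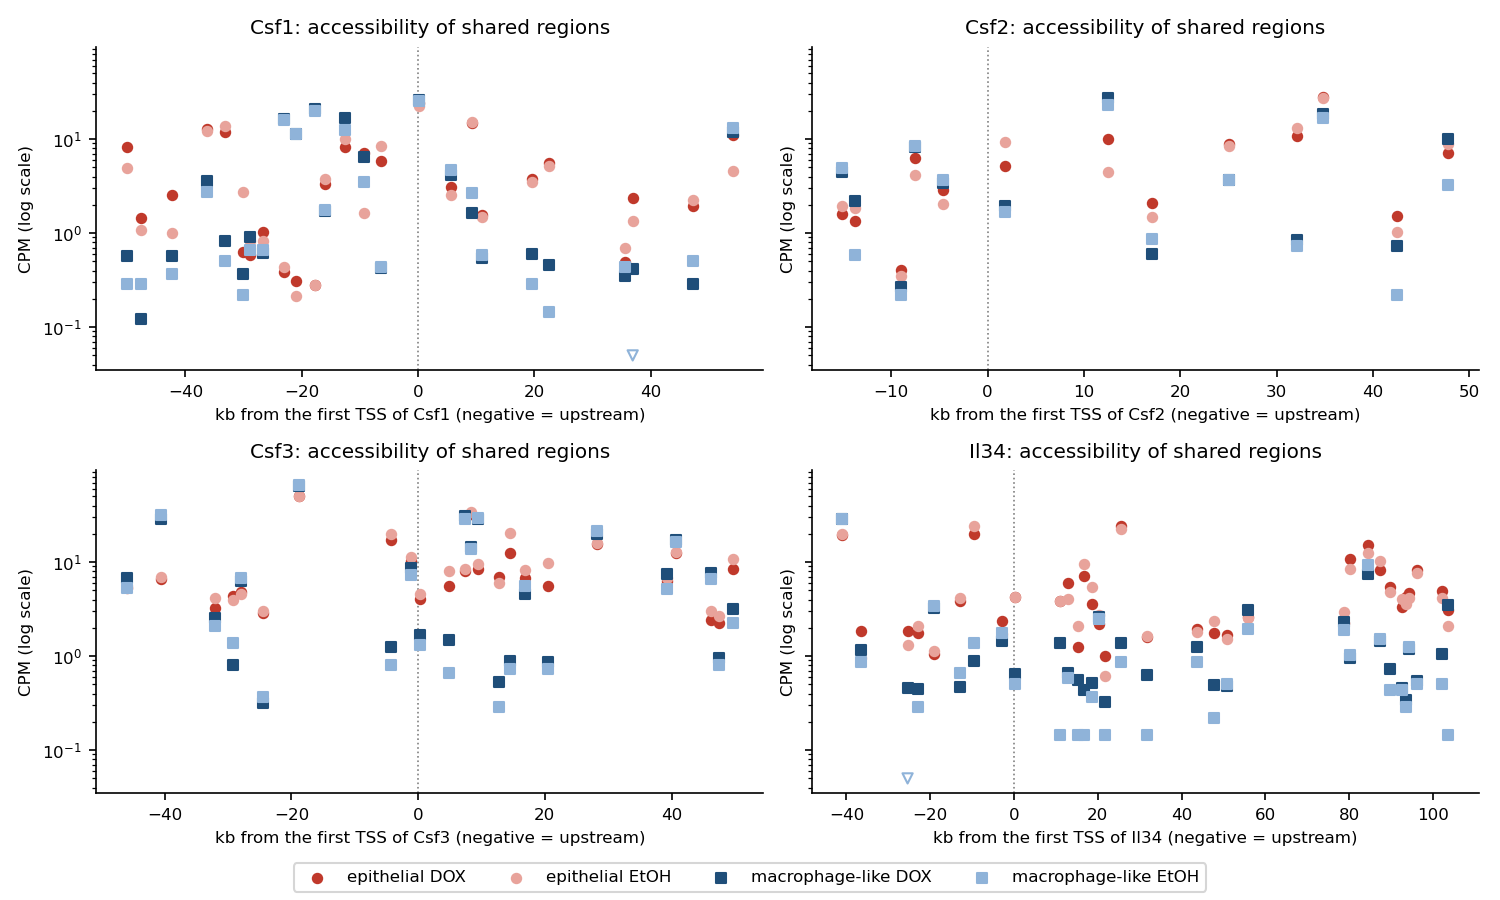
Level of each shared region in CPM (y axis, log scale) against the distance from the first TSS of each gene in kb (x axis), for epithelial nuclei (circles) and macrophage-like nuclei (squares) of DOX (dark) and EtOH (light). Open triangles at the lower edge are levels of 0, the cluster of squares above circles upstream of Csf1 is the group of macrophage-like regions at 11.2 to 20.8 CPM, and in Il34 most squares lie below the circles.

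Over all 4 genes, 52 regions had enough counts for DOX and EtOH to be compared within macrophage-like nuclei. At least 2-fold higher in DOX were 5 (9.62%, against 6.21% of 84202 regions), 2 each of Csf2 and Il34 and 1 of Csf3, and none was lower (0.41% of all regions). Both Il34 regions had 2 counts in EtOH, and the Csf3 region had 9, so that their ratios rest on few fragments. The EtOH library held 278 macrophage-like nuclei with 13752376 counts, against 82595405 counts in DOX. The count minimum applied to the sum of both libraries, so regions passed it mainly through their DOX counts. Regions higher in DOX were thus more easily compared than regions lower in DOX, here and over all regions. The lack of lower regions therefore cannot be read as a gain in DOX. None of the Csf1 regions differed by 2-fold in these nuclei (0 of 11).

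Between the classes, 93 regions were compared. At least 2-fold higher in macrophage-like nuclei of both libraries were 10 (3 of Csf1, 2 of Csf2, 4 of Csf3 and 1 of Il34, or 10.8%), against 15.3% of all 167223 shared regions. At least 2-fold higher in epithelial nuclei of both were 50 (12, 4, 11 and 23, or 53.8%), against 49.7% of all regions. Il34 stood furthest to the epithelial side, with 23 of its 33 regions, and Csf2 least, with 4 of 12. The libraries gave the same sign in 80 of the 91 regions with a count in every group, and the median difference between their log2 values was 0.54. The plot of these ratios shows the 3 Csf1 regions apart from all others at the upper right.

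**Figure D3:**
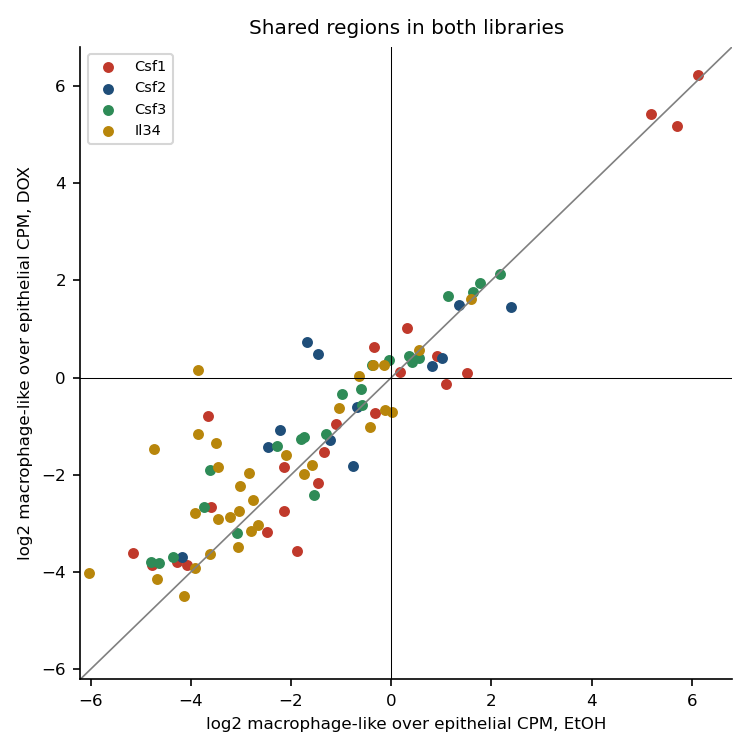
The log2 ratio of macrophage-like over epithelial CPM in DOX (y axis) against the same ratio in EtOH (x axis) for 91 shared regions, coloured by gene, with the line of equality in grey. Most Il34 points lie at the lower left, and 3 Csf1 points stand above 5 on both axes.

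Regions called in 1 library were mostly biased to 1 class. Of the 17 called in DOX alone, 15 were at least 2-fold higher in its macrophage-like nuclei, beside 63.7% of all 46831 such regions, and 1 was higher in its epithelial nuclei. Of the 20 called in EtOH alone, 17 were at least 2-fold higher in its epithelial nuclei, beside 77.9% of 53523, and none in its macrophage-like nuclei (1.89% of all). The Csf2 window held 7 of those of DOX and the Csf1 window 7. Macrophage-like nuclei were 41.6% of DOX and 8.96% of EtOH, and the part of this makeup in the peak lists was not tested.

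Macrophage-like nuclei gave 30.7% of the Csf1 promoter counts in DOX and 5.10% in EtOH, 31.8% and 3.88% of those of Csf3, and 12.2% and 0.759% of those of Il34. With all nuclei together, the log2 ratios of the promoters were -0.11 for Csf1, -0.27 for Csf3 and -0.62 for Il34, each lower than in epithelial nuclei alone. Over all nuclei 6 regions of the 4 genes were at least 2-fold higher and 7 lower in DOX, against 13.0% and 13.4% of all regions.

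**Figure D4:**
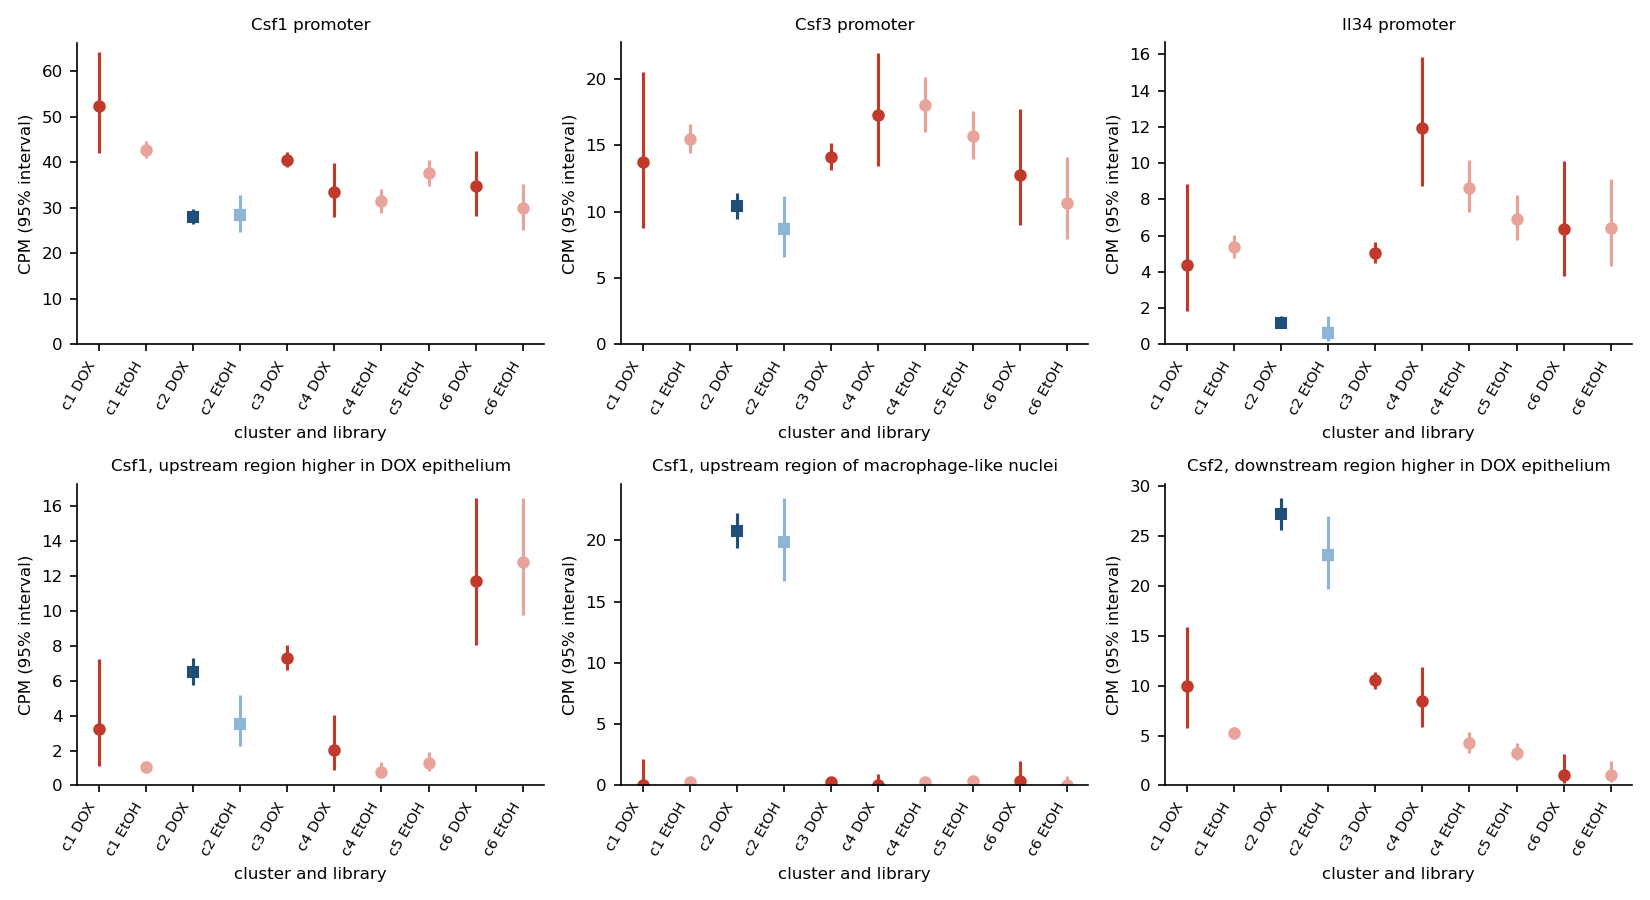
Level in CPM (y axis) of the Csf1, Csf3 and Il34 promoters and of 3 distal regions in each cluster and library with at least 50 nuclei (x axis, c1 to c6), with 95% intervals for counting error and squares for macrophage-like nuclei. The Csf1 region 9.27 kb upstream is highest in cluster 6 of both libraries, that 17.7 kb upstream is open in cluster 2 alone, and the Csf2 region 12.5 kb downstream is higher in DOX in clusters 1 and 4.

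Across the 10 groups of cluster and library in that plot, the order of promoter levels was led by cluster 1 for Csf1 (52.3 CPM in DOX and 42.8 CPM in EtOH), with macrophage-like nuclei last (28.0 and 28.5 CPM), although cluster 6 of EtOH (29.9 CPM) and cluster 4 of EtOH (31.4 CPM) did not differ from EtOH macrophage-like nuclei beyond their intervals. The promoters most like that of Csf1 over these groups were those of Slc22a15, Cyp2d11 and Dnajb13 (Pearson r = 0.965, 0.960 and 0.958 of log2 CPM over 10 groups). Those most like Csf3 were Fuk, Ccdc160 and Rnf222 (0.979, 0.979 and 0.977), and those most like Il34 were Hs3st5, Mak and Ube2u (0.994, 0.992 and 0.988). These are the highest of 16339 genes, and the groups share 2 libraries.

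The receptors of these factors were measured at their promoters. Of 8 receptor genes, 5 were at least 2-fold higher in macrophage-like nuclei of both libraries (Csf1r, Csf2rb, Csf2rb2, Csf3r and Il3ra), against 6.88% of 16254 promoters. Csf1r was one of the 3 genes used to set these nuclei apart, and without it the count was 4 of 7. Another 2 were higher in epithelial nuclei, against 17.6%. The latter, Ptprz1 and Sdc1, encode further binding partners of IL-34 and stood at 6.11 and 5.08 CPM and at 34.5 and 34.3 CPM in epithelial nuclei. Csf1r itself had 58.6 and 54.9 CPM there and 4.95 and 6.88 CPM in epithelial nuclei. Csf2ra, the alpha chain of the GM-CSF receptor, was open in both, at 100.4 and 93.9 CPM in epithelial and 78.2 and 77.3 CPM in macrophage-like nuclei. Between DOX and EtOH epithelium none of the 6 with enough counts differed by 2-fold, beside 0.745% higher and 0.807% lower of 16243 promoters. The largest ratio was that of Il3ra, the alpha chain of the interleukin-3 receptor, at 40.5 and 25.7 CPM (log2 0.66, 0.58 to 0.74), and the smallest that of Csf1r (-0.47, -0.67 to -0.28).

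Of 10 other myeloid growth factors and attractants, 7 had a promoter region and Il3, Il5 and Il1a had none. None of the 7 differed by 2-fold between DOX and EtOH epithelium. The extremes were Il6 at 16.9 and 13.4 CPM (log2 0.34, 0.22 to 0.45) and Tnf, an inflammatory cytokine, at 16.8 and 19.0 CPM (-0.18, -0.29 to -0.07). Il1b, Tnf and Ccl2, the monocyte attractant, were higher in macrophage-like nuclei, and Kitl and Cx3cl1, a membrane-bound attractant of monocytes, in epithelial nuclei.

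Among 7 genes of the NF-kB pathway, which can induce several colony-stimulating factors, none differed by 2-fold in the epithelium. They ran from Nfkb1 at 14.7 and 17.7 CPM (log2 -0.26, -0.38 to -0.15) to Nfkb2 at 77.1 and 68.8 CPM (0.16, 0.11 to 0.22), and Nfkb1 and Tnfaip3 were higher in macrophage-like nuclei. Among 9 genes of signalling below these receptors, from Jak2 and Stat5a to Cbl, again none differed by 2-fold. They ran from Stat5b at 19.4 and 20.8 CPM (-0.11, -0.21 to -0.004) to Inpp5d, a lipid phosphatase of blood cells, at 2.38 and 1.67 CPM (0.51, 0.18 to 0.84), whose level in macrophage-like nuclei was 47.0 and 58.8 CPM. The medians of the lists in epithelial nuclei, 0.11, 0.02, 0.06 and 0.13 in this order, stood beside 0.02 over all promoters. In macrophage-like nuclei none of the receptor, growth factor, NF-kB or signalling promoters was called between DOX and EtOH either, beside 1.19% higher and 0.122% lower of 14696 promoters.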

How the data were processed

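Single-cell ATAC-Seq was measured in 1 library per group (DOX, EtOH), grouped by the sample labels. Per the labels 7600 nuclei were loaded to recover 5000. The design text names 4 mice, the additional methods fewer, and in 1 legend the study names wild-type animals where labels and methods name shTrps1 mice. The labels were followed. For each library the authors deposited whole-number counts of transposition events per peak and nucleus with a peak list and a barcode list, without normalization. The file header names Cell Ranger ATAC 2.0.0, the additional methods name another version, and the labels name mm10. No region ended beyond a chromosome of the reference, and 69.0% of 21924 protein-coding genes had a TSS in a shared region. No other per-sample columns were present.

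Peaks of both libraries were merged at 1 bp of overlap (275294 regions, 174940 shared), and peaks on scaffolds (69 and 61) were left out. Counts were summed over nuclei and divided by the total of the class in shared regions, which hold 94.7% (DOX) and 94.8% (EtOH) of counts, to give CPM. Only 13.8% and 14.3% of nonzero values were odd, as the ends of a fragment mostly share 1 peak, so exact Poisson intervals of CPM and exact conditional binomial intervals of ratios (95%) used counts divided by 2. Intervals cover counting error only. Where a library has no peak, its count is missing and was not set to 0. A call was a ratio of at least 2-fold with at least 100 counts, and in classes also in both libraries. The calls were also run on simulated Poisson counts. That simulation shares the model of the intervals, so it says nothing on variation between libraries. Shared regions within 1 kb of any TSS of a gene were summed as its promoter, and distances run to the centre of a region. Total depth was 224762118 counts in DOX and 211963715 in EtOH.

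Nuclei were clustered by TF-IDF and singular value decomposition (components 2 to 30), 15 neighbours and Leiden at a resolution of 0.5 (seed 1). No doublet caller was run, and an alternative left out the 5% of nuclei of highest depth. Python 3.11.15, numpy 2.4.6, scipy 1.17.1, pandas 2.3.3, scikit-learn 1.9.0, igraph 0.11.9, leidenalg 0.10.2 and matplotlib 3.10.9 were used. Named were the 4 genes, their promoter regions, the regions at least 2-fold apart in epithelial nuclei, the most counted region of each gene, the extremes of each pathway list and the 3 promoters of most like pattern. Other regions named were chosen after their values were seen. The members and lists were chosen with earlier results of these data known.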

Additional observations from a re-analysis of the deposited data

Results flagged for a closer look

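In a few regions epithelial and macrophage-like nuclei differed in opposite directions between DOX and EtOH, each with a counting interval on 1 side of 0. The difference between the classes was not tested. The Csf2 region 47.8 kb downstream had a log2 ratio of -0.34 in epithelial nuclei and 1.61 in macrophage-like nuclei. The Csf2 region 13.8 kb upstream had -0.47 and 1.93, the latter from 8 EtOH counts. The Csf1 region 12.6 kb upstream (chr3:107772592-107773567) had -0.29 and 0.40, at 8.22 and 10.1 CPM in epithelial and 16.6 and 12.6 CPM in macrophage-like nuclei. The negative epithelial ratio of the Csf2 region 47.8 kb downstream was not seen within the epithelial clusters compared. There it was 0.82 in cluster 1 and 0.17 in cluster 4, with intervals that hold 0. In cluster 6 it was 3.54 (0.58 to 9.03, from 2 EtOH counts).

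The peak on the Csf2 TSS, called in DOX alone, had 2.34 CPM over all DOX nuclei from 497 counts, and entered no comparison because EtOH has no count for it.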

How the results depend on the processing

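No paired analysis was possible because 1 sample stands for each treatment. The alternatives for the Csf2 promoter were not run, since it has no shared region. The values within clusters and without cluster 6 were chosen after seeing the data. Scaling to a median of 0, half-overlapping peaks, a Leiden resolution of 1, leaving out the deepest 5% of nuclei, equal weights per nucleus and other count minimums left the promoter ratios within their counting intervals and the counts of called regions within 1.5 times of 4 and 1. With classes set from each nucleus alone (1422 and 563 macrophage-like nuclei), the log2 of macrophage-like over epithelial was -0.33 for Csf1, -0.21 for Csf3 and -0.76 for Il34. Of these macrophage-like nuclei 1197 and 247 were in the macrophage-like cluster. With promoters of 500 bp the log2 of macrophage-like over epithelial for Csf3 was -1.53. With all nuclei the DOX over EtOH ratio was -0.11 for Csf1 and -0.62 for Il34, and 7 regions were lower. A window of 10 kb gave 1 higher and 0 lower region, and one of 100 kb gave 8 and 4. Within cluster 1 the Csf1 promoter ratio was 0.29, within cluster 4 that of Il34 was 0.47, and within cluster 6 those of Csf1 and Csf3 were 0.22 and 0.26. Within cluster 6 most of the called distal regions showed no clear direction, all with intervals that hold 0. They were at -0.13 (9.27 kb upstream of Csf1), 0.15 (30.0 kb, 4 DOX and 6 EtOH counts), -0.29 (42.2 kb) and -0.0034 (12.5 kb downstream of Csf2, 6 and 10 counts). The region 54.2 kb downstream of Csf1 kept its direction there, at 0.75 (0.20 to 1.29). The cause of these shifts was not tested. Depth limits the macrophage-like nuclei of EtOH most, where a region of 2 counts sets a ratio.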
